A study of Homo sapiens with 8 samples.

Results

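Expression of the translesion and error-prone DNA polymerase genes was examined in HT29, a human colorectal cancer cell line that carries the BRAF V600E mutation. The members were the rows of the HT29 gene table whose symbol was POLH, POLI, POLK, POLQ, POLN, REV1, REV3L, MAD2L2, PRIMPOL or RAD18. All 10 were found, of 38148 genes in the table, and all 10 passed the filter on low values described below. Cells were either untreated or treated with 1 µM selumetinib, an inhibitor of the kinases MEK1 and MEK2, for 24 h. They were then fixed with glyoxal, stained for the mitotic cyclin CCNB1 and sorted by its signal into a negative and a positive fraction. This gave 4 groups of 2 mRNA-seq libraries each: untreated CCNB1-negative, untreated CCNB1-positive, selumetinib CCNB1-negative and selumetinib CCNB1-positive. All groups come from 1 cell line with no genetic change between them, the sources name different growth media for it, and nothing says whether the 2 libraries of a group came from separate cultures, so the p-values measure only the spread between these libraries.

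Translesion polymerases are specialised enzymes that copy past damaged bases at which the replicative polymerases stall, at the cost of lower accuracy on intact DNA. RAD18 attaches ubiquitin to the sliding clamp PCNA, the modified clamp recruits a polymerase that inserts a base opposite the lesion, and polymerase zeta then extends from it. Polymerase theta instead joins broken ends at short stretches of matching sequence, and PRIMPOL restarts synthesis beyond a lesion by laying down a new primer. The comparison bears on whether cells held under an inhibitor of growth factor signalling, and those that still express CCNB1 there, shift the balance between accurate and error-prone DNA synthesis genes.

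The labels contradict each other for all 8 libraries. The sample titles give a different treatment and fraction from the sample descriptions, and groups here follow the descriptions, which match the column names of the table. If the titles held instead, each selumetinib response given here would belong to the opposite fraction with its sign changed, and the fraction differences would swap between treatments, each with the opposite sign. The difference of the responses would be the same under either reading. The groups named by the descriptions had 88 to 154 reads of CCNB1 in the selumetinib CCNB1-negative libraries and 3764 to 6167 in the selumetinib CCNB1-positive libraries, against 2988 to 3271 and 14140 to 15521 in the corresponding untreated libraries. DUSP6, a phosphatase gene induced by ERK signalling, was lower in the selumetinib libraries with log2 differences of -1.75 in the CCNB1-negative and -1.06 in the CCNB1-positive fraction. Under the titles, the CCNB1-positive libraries would instead hold fewer CCNB1 reads than the CCNB1-negative libraries in both treatments. DUSP6 would then be higher with selumetinib in both fractions.

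Libraries held 12696860 to 23916160 reads on genes. Reads of mitochondrially encoded genes made up 4.44 to 7.80% of an untreated library and 11.9 to 14.8% of a selumetinib library, and the nuclear RNA MALAT1 0.303 to 0.386% and 2.01 to 4.42%, so both moved with treatment. All 9 colorectal epithelial markers examined were measured, EPCAM among them, with a summed level of 11564 to 12959 RPM (reads scaled to the library's total) in untreated and 6792 to 11056 RPM in selumetinib libraries. Of 7 markers of leukocytes, fibroblasts and endothelium, 6 had at most 25 reads in any library. The exception was COL1A1, with 6 to 107 reads, and the summed level of the 7 was 1.73 to 2.095 RPM in untreated libraries and 3.54 to 7.21 in selumetinib libraries. A shift of the deposited values for the share of mitochondrial and MALAT1 reads is given further on. The part of these differences in the results below was otherwise not tested.

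The start sites of 4 members, each with a match to a word listed below, are shown as examples of the 3 response patterns described below. They are POLQ and PRIMPOL, lower after selumetinib in the CCNB1-negative fraction alone by the test used, RAD18, lower in both fractions, and POLI, higher in both. The RefSeq promoter table (GRCh38.p14) had 12 windows of 300 bases for the 10 members, with REV3L and MAD2L2 at 2 start sites each, and no member lacked a window. Each line runs 5′ to 3′ on the gene's strand, and capitals mark exact matches to the words searched on both strands: the cell cycle homology region word (TTTGAA), the ETS word (CCGGAAGT), and the E2F words (TTTCCCGC, TTTCGCGC, TTTGCCGC and TTTGGCGC). The CCAAT word of NF-Y was searched as well.
POLQ, chr3:121545939-121546238, minus strand: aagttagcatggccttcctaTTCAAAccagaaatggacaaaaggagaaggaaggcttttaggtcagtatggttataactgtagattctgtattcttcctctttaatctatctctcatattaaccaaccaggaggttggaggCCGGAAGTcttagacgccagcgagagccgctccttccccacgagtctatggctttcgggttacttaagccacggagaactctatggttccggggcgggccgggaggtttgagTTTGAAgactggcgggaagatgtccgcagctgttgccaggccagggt
PRIMPOL, chr4:184649488-184649787, plus strand: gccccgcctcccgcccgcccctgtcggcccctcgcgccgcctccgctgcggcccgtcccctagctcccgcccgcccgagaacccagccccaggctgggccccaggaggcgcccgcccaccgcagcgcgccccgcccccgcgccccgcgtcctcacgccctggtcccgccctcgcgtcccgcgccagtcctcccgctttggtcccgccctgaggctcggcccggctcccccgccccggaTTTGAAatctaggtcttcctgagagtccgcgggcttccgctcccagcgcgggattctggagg
RAD18, chr3:8963423-8963722, minus strand: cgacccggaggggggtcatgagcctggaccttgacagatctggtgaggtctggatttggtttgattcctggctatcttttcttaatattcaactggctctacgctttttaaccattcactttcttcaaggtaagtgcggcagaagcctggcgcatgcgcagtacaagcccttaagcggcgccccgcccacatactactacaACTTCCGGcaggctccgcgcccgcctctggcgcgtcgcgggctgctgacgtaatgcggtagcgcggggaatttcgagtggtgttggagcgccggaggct
POLI, chr18:54269324-54269623, plus strand: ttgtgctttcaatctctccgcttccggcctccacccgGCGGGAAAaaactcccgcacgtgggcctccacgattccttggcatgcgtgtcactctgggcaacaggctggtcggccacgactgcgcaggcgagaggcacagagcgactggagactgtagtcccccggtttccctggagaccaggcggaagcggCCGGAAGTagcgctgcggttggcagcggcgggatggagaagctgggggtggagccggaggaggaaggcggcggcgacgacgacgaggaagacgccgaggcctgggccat

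The POLQ window held the cell cycle homology region word with its first base at position 4 and its reverse complement at position -230, counted from the start site, and the PRIMPOL window held the word at position -12. The word occurred in 2 of the 12 member windows and in 10.5% of the 14434 windows of tested genes. The ETS word lay at -109 in POLQ, at -49 on the opposite strand in RAD18 and at -59 in POLI, which makes 3 of 12 windows against 7.60%. An E2F word lay at -213 in POLI on the opposite strand and at -88 in the other REV3L window, 2 of 12 against 4.91%. CCAAT was found in 1 of the 12, a MAD2L2 window, against 35.2%. The words overlapped nowhere in these windows, and POLH, POLK, POLN and REV1 had no match in theirs. Of these, POLH and POLN had the response pattern of POLQ and PRIMPOL, and POLK and REV1 that of POLI. The matches are descriptions of letters and no factor binding was measured.

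Levels of different genes were compared per length, as RPKM, the reads per kilobase of merged exons scaled to the reads on genes of a library. Merged exons hold every annotated exon of a gene, 17863 bases for POLK and 5431 for MAD2L2. Where the transcripts present are shorter, the level is understated, so the order between genes depends on the annotation. Which transcripts were present was not tested. On the RPKM scale POLQ had the highest level of the 10 genes in untreated CCNB1-negative cells, 8.32 ± 2.65 (SD, n = 2). MAD2L2 at 6.48 ± 0.29 and REV1 at 6.04 ± 0.21 followed, and these levels lay within the spread of POLQ. RAD18 at 5.08, POLN at 3.56, REV3L at 3.43 and PRIMPOL at 2.82 came next. POLH, POLI and POLK had the lowest levels, at 1.29, 0.764 and 0.679, the last pair with SDs of 0.08 and 0.05 that overlapped. In selumetinib CCNB1-negative cells the order changed. REV1 at 10.7 ± 0.77 and REV3L at 10.7 ± 1.69 were then the highest and indistinguishable from each other, and POLQ was at 1.65 ± 0.30, level with RAD18 at 1.70 ± 0.19 and POLI at 1.59 ± 0.10. In selumetinib CCNB1-positive cells POLQ was again highest, at 13.1 ± 0.85.

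**Figure D1:**
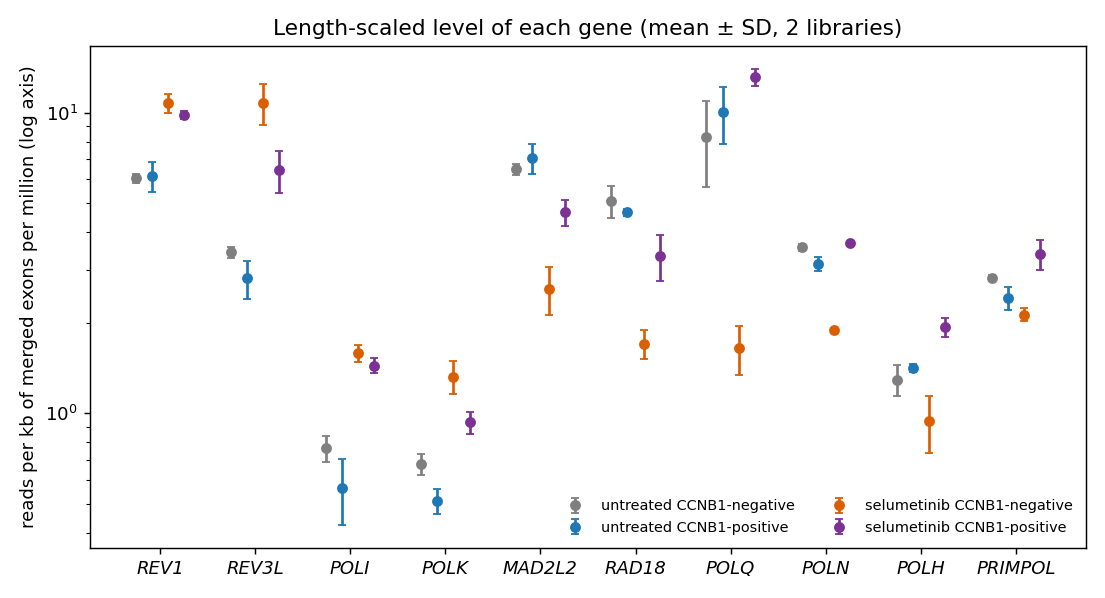
RPKM, the length-scaled level, of each of the 10 genes on a log axis, with points for the mean and bars for the SD of 2 libraries in each of the 4 groups. POLQ spans 1.65 to 13.1 across the groups, whereas POLI and POLK are at or below 1.59 in every group.

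In the CCNB1-negative fraction, selumetinib separated the members into 4 that rose and 6 that fell. REV3L, POLI, POLK and REV1 rose, by 0.69 to 1.50 on the log2 scale, and POLQ, RAD18, MAD2L2, POLN, POLH and PRIMPOL fell, with differences of -0.55 to -2.45. All 10 passed the threshold of 0.05 on the adjusted p (limma on the deposited log2 values, Benjamini-Hochberg over 14219 genes), where 74.1% of all genes tested passed it, 38.2% upwards and 35.8% downwards, so the number of members called is not particular to them. The median difference was -0.58 over the members and 0.05 over all genes. In the CCNB1-positive fraction the same 4 genes rose, by 0.58 to 1.27, and RAD18 and MAD2L2 fell, with differences of -0.60 and -0.70. These were 6 of 10, against 65.3% of all genes, with 38.0% upwards and 27.3% downwards. The other 4 members were not past the threshold there, with estimates of 0.12 to 0.38. The median was 0.36 over the members and 0.17 over all genes. Taking the fractions side by side, 4 members were higher in both, as were 33.3% of all genes, 2 were lower in both, as were 26.0%, and 4 were lower in the CCNB1-negative fraction and not past the threshold in the other, as were 9.42%. In a bulk sample of sorted cells, a change in the share of cells that express a gene and a change in its level per cell cannot be told apart.

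**Figure D2:**
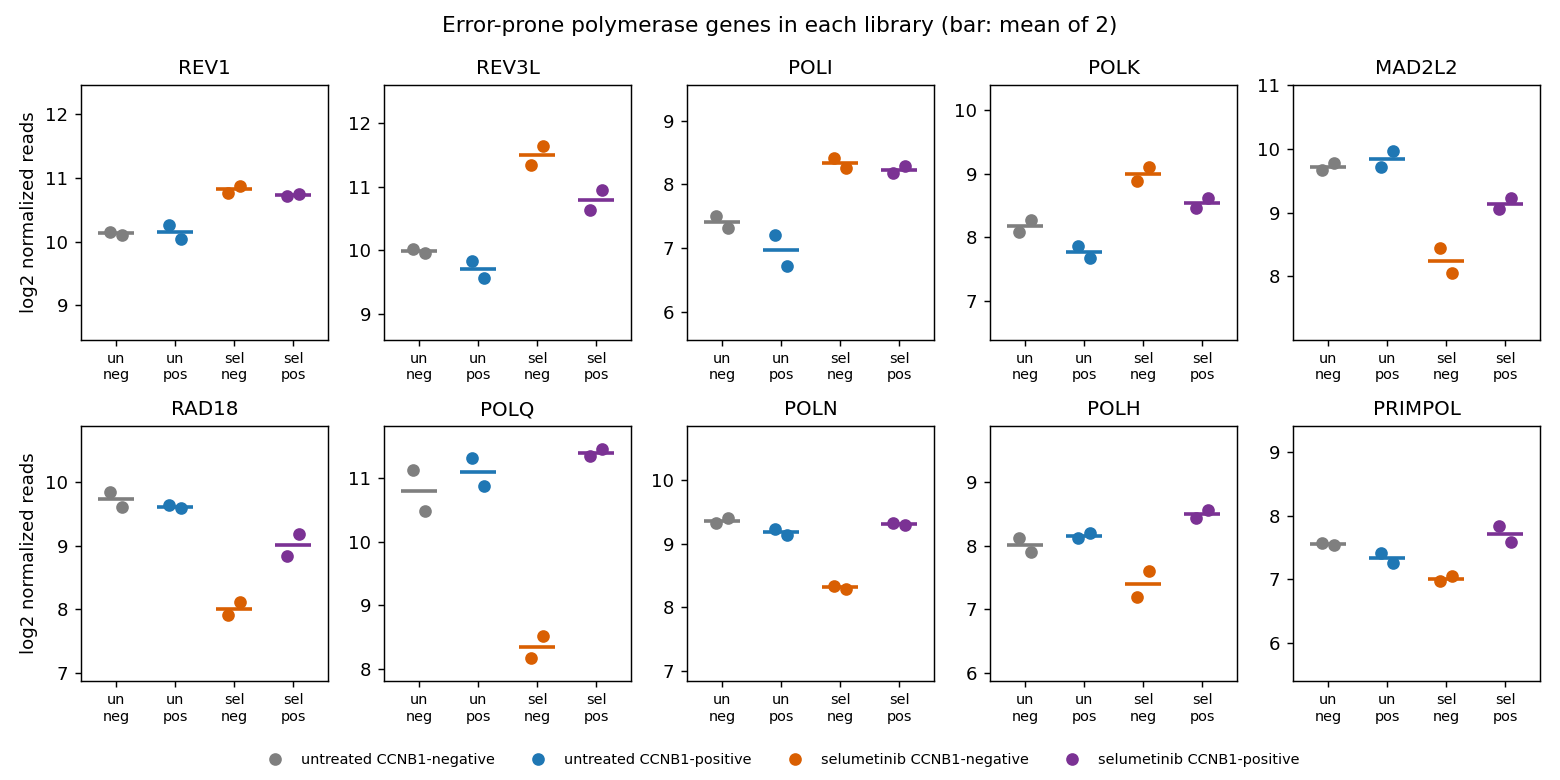
The deposited log2 normalized reads of each gene in each of the 8 libraries, with short bars for the mean of the 2 libraries of a group. Every panel spans 4 log2 units, and the abbreviations are un for untreated, sel for selumetinib, neg and pos for CCNB1-negative and CCNB1-positive. The selumetinib CCNB1-negative libraries of POLQ, at 8.17 and 8.52, lie apart from the other 6 libraries, which start at 10.48.

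**Figure D3:**
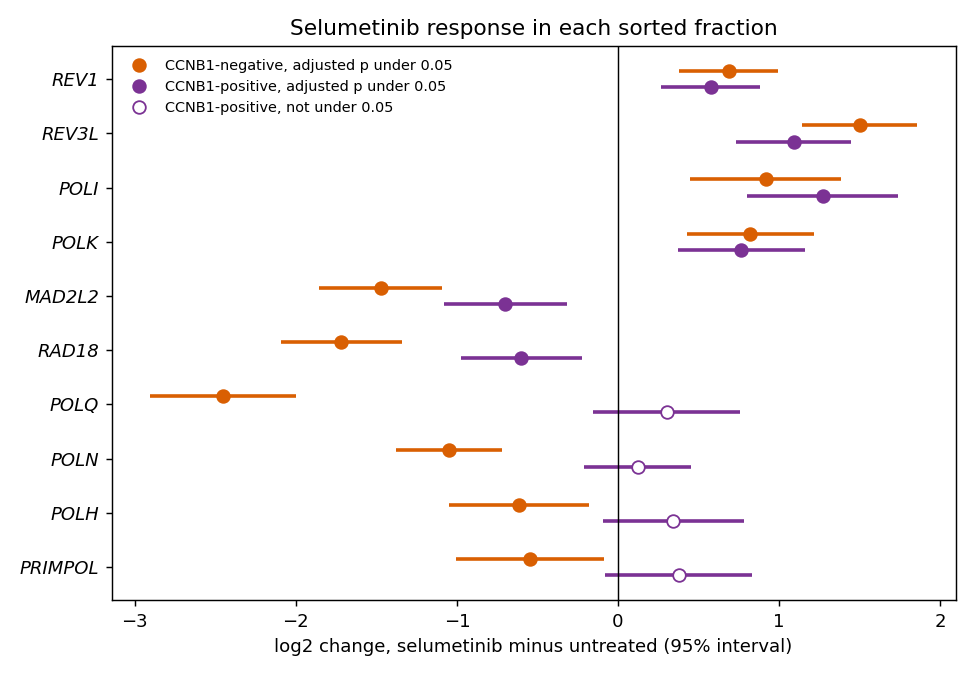
Selumetinib minus untreated log2 difference for each gene in the CCNB1-negative and the CCNB1-positive fraction, with 95% intervals from limma. Filled points have an adjusted p under 0.05. The upper 4 genes lie to the right of 0 in both fractions, MAD2L2 and RAD18 to the left in both, and the lower 4 genes to the left in the CCNB1-negative fraction with intervals that include 0 in the CCNB1-positive fraction.

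REV3L, the catalytic subunit of polymerase zeta (chr6:111299028-111483715, minus strand, GRCh38), had log2 levels of 10.03 and 9.96 in untreated CCNB1-negative and 9.84 and 9.56 in untreated CCNB1-positive libraries, and of 11.35 and 11.64 in selumetinib CCNB1-negative and 10.64 and 10.95 in selumetinib CCNB1-positive libraries. Every selumetinib library was above every untreated library. The difference was 1.50 ± 0.17 (SE), or 2.83-fold, in CCNB1-negative cells (limma adjusted p = 2.0e-06) and 1.09 ± 0.17, or 2.13-fold, in CCNB1-positive cells (limma adjusted p = 6.9e-05). It was the largest rise among the members in the CCNB1-negative fraction under the scaling used.

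REV1, a deoxycytidyl transferase that also serves as the docking platform for the other translesion polymerases (chr2:99400475-99490035, minus strand), had log2 levels of 10.16, 10.11, 10.27 and 10.05 in the untreated libraries, the CCNB1-negative pair first, and 10.76, 10.88, 10.71 and 10.75 in the selumetinib libraries. The untreated and selumetinib libraries did not overlap and the fractions differed little. The rise was 0.69 ± 0.14 (SE) in the negative fraction (limma adjusted p = 5.9e-04) and 0.58 ± 0.14 in the positive fraction (limma adjusted p = 0.0029). The latter was no longer past the threshold without untreated CCNB1-positive replicate 2 (0.47, limma adjusted p = 0.055, the highest of 16 alternatives, whose lowest was 7.5e-04). Of its merged exons 11% lie opposite EIF5B, a translation factor gene with responses of -0.98 and -0.67, and how strand was treated in the deposited table is not given in the sources used here.

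POLI, a Y-family polymerase of very low fidelity (chr18:54269404-54321266, plus strand), had 168 and 127 reads in untreated CCNB1-negative, 148 and 96 in untreated CCNB1-positive, 217 and 180 in selumetinib CCNB1-negative and 258 and 198 in selumetinib CCNB1-positive libraries. On the normalized log2 scale these were levels of 7.51, 7.32, 7.21, 6.72, 8.41, 8.25, 8.18 and 8.28 in that order. All 4 selumetinib libraries were above all 4 untreated ones. The rise was 0.92 ± 0.22 (SE) in CCNB1-negative cells (limma adjusted p = 0.0017) and 1.27 ± 0.22, or 2.41-fold, in CCNB1-positive cells (limma adjusted p = 1.9e-04). With quantile normalization the latter was 0.62, or 1.54-fold (limma adjusted p = 0.014, the highest of 15 alternatives, whose lowest was 8.3e-05).

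POLK, a Y-family polymerase that bypasses bulky adducts and extends mismatched primer ends (chr5:75511756-75601144, plus strand), had log2 levels of 8.09 and 8.27, then 7.86 and 7.68, in the untreated CCNB1-negative and CCNB1-positive libraries. After selumetinib they were 8.88 and 9.11, then 8.46 and 8.62. The groups did not overlap, and in each treatment the CCNB1-negative pair was the higher. The rise was 0.82 ± 0.18 (SE) in the negative fraction (limma adjusted p = 0.0011) and 0.77 ± 0.18 in the positive fraction (limma adjusted p = 0.0023). With quantile normalization the CCNB1-positive rise was 0.31 and not past the threshold (limma adjusted p = 0.17, the highest of 16 alternatives, whose lowest was 7.6e-04).

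RAD18, the ubiquitin ligase that modifies PCNA (chr3:8775402-8963773, minus strand), had 847 and 620 reads in untreated CCNB1-negative, 794 and 704 in untreated CCNB1-positive, 153 and 163 in selumetinib CCNB1-negative and 408 and 368 in selumetinib CCNB1-positive libraries. Its log2 levels were 9.84, 9.61, 9.63 and 9.59 without drug, 7.91 and 8.11 in selumetinib CCNB1-negative and 8.84 and 9.18 in selumetinib CCNB1-positive libraries. The selumetinib CCNB1-positive libraries thus lay between the untreated libraries and the selumetinib CCNB1-negative libraries, with no overlap. The fall was 3.29-fold in CCNB1-negative cells (log2 difference -1.72 ± 0.17 SE, limma adjusted p = 9.6e-07) and 1.52-fold in CCNB1-positive cells (-0.60 ± 0.17, limma adjusted p = 0.0080). The latter was no longer past the threshold without selumetinib CCNB1-positive replicate 1, at -0.43 (limma adjusted p = 0.10, the highest of 16 alternatives, whose lowest was 0.0035).

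MAD2L2, the accessory subunit of polymerase zeta and also a subunit of the shieldin complex at broken ends (chr1:11674480-11691650, minus strand), had log2 levels of 9.66, 9.77, 9.72 and 9.96 in the untreated libraries, 8.44 and 8.05 in selumetinib CCNB1-negative and 9.05 and 9.23 in selumetinib CCNB1-positive libraries. As for RAD18, the selumetinib CCNB1-positive libraries lay between the untreated and the selumetinib CCNB1-negative libraries, without overlap. The fall was 2.77-fold in CCNB1-negative cells (log2 difference -1.47 ± 0.18 SE, limma adjusted p = 4.8e-06) and 1.62-fold in CCNB1-positive cells (-0.70 ± 0.18, limma adjusted p = 0.0034). The catalytic and the accessory subunit of polymerase zeta therefore moved in opposite directions in both fractions. Across the 8 libraries the log2 levels of REV3L and MAD2L2 had a Pearson correlation of -0.97, a description over 4 group means that share the same libraries.

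POLQ, the polymerase and helicase of theta-mediated end joining (chr3:121431427-121546641, minus strand), had 2055 and 1132 reads in untreated CCNB1-negative, 2538 and 1718 in untreated CCNB1-positive, 184 and 217 in selumetinib CCNB1-negative and 2300 and 1781 in selumetinib CCNB1-positive libraries. On the normalized log2 scale the levels were 11.12 and 10.48, 11.31 and 10.88, 8.17 and 8.52, and 11.34 and 11.45. Only the selumetinib CCNB1-negative libraries stood apart, and the 2 selumetinib CCNB1-positive libraries were the highest of all 8. The fall in CCNB1-negative cells was 5.47-fold (limma adjusted p = 2.1e-07), and the response in CCNB1-positive cells was 0.30 with a 95% interval of -0.15 to 0.76. POLQ shares no exonic base with another annotated gene.

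POLN, an A-family polymerase related to POLQ (chr4:2071918-2242121, minus strand), had log2 levels of 9.33, 9.40, 9.23 and 9.14 in the untreated libraries, 8.34 and 8.29 in selumetinib CCNB1-negative and 9.33 and 9.29 in selumetinib CCNB1-positive libraries. The selumetinib CCNB1-negative pair was below the other 6 libraries, which spanned 9.14 to 9.40. The fall was 2.07-fold in CCNB1-negative cells (log2 difference -1.05 ± 0.15 SE, limma adjusted p = 3.0e-05), and the response in CCNB1-positive cells was 0.12 (95% interval -0.21 to 0.45). These reads cannot be assigned to POLN with certainty. HAUS3, an augmin subunit gene of the mitotic spindle on the same strand, shares 8.88% of the merged exons of POLN and an unnamed overlapping gene 47.8%, and HAUS3 itself had responses of -1.24 and -0.03.

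POLH, which copies past ultraviolet-induced pyrimidine dimers and is defective in the variant form of xeroderma pigmentosum (chr6:43576150-43615660, plus strand), had log2 levels of 8.12, 7.90, 8.11 and 8.19 in the untreated libraries, 7.19 and 7.61 in selumetinib CCNB1-negative and 8.43 and 8.56 in selumetinib CCNB1-positive libraries. The selumetinib CCNB1-negative pair was the lowest and the selumetinib CCNB1-positive pair the highest. The differences were -0.61 ± 0.20 (SE) in the negative fraction (limma adjusted p = 0.014) and 0.34 ± 0.20 in the positive fraction (limma adjusted p = 0.15, 95% interval -0.09 to 0.78). Leaving out untreated or selumetinib CCNB1-negative replicate 1 ended the call of the fall (limma adjusted p = 0.099 and 0.10, in a range of 7.6e-04 to 0.10 over 16 alternatives), as did 3 alternatives in how libraries were scaled, given further on.

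PRIMPOL, the primase-polymerase that restarts stalled synthesis (chr4:184649667-184694963, plus strand), had 175, 148, 171 and 139 reads in the untreated libraries, 80 and 78 in selumetinib CCNB1-negative and 203 and 122 in selumetinib CCNB1-positive libraries, the lowest counts of the 10 genes in the selumetinib CCNB1-negative group. Its log2 levels were 7.57 and 7.54, 7.42 and 7.25, 6.97 and 7.05, and 7.84 and 7.59. The selumetinib CCNB1-negative pair was the lowest and the selumetinib CCNB1-positive pair the highest. The difference was -0.55 ± 0.21 (SE) in CCNB1-negative cells (limma adjusted p = 0.032), and 7 of 15 alternatives kept it past the threshold, with limma adjusted p between 2.2e-04 and 0.14. In CCNB1-positive cells it was 0.38 (95% interval -0.08 to 0.83). Of its merged exons 18.6% lie opposite CENPU, a centromere protein gene whose responses were -3.48 and -0.52.

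The median response of all genes moved by more than 0.1 with the scaling, which sets how the smaller differences read. It was 0.05 in the negative and 0.17 in the positive fraction as deposited, and -0.07 and -0.08 after quantile normalization. Nuclear scaling, which shifted the deposited values for each library's share of mitochondrial and MALAT1 reads among reads on genes, gave 0.23 and 0.31. Limma-voom on the recovered reads and a pseudocount of 0.1 RPM, which both scale to the reads on genes, gave 0.19 and 0.27. The deposited scaling is not that of the reads on genes, so nuclear scaling did not make nuclear reads the library size. Relative to the median of all genes, the CCNB1-positive responses were 0.14 for POLQ, -0.04 for POLN, 0.18 for POLH and 0.21 for PRIMPOL. Under quantile normalization the estimates for POLN, POLH and PRIMPOL in CCNB1-positive cells turned negative, at -0.03, -0.05 and -0.31, none past the threshold, while the falls of POLH and PRIMPOL in CCNB1-negative cells were larger, at -1.08 and -1.19 (limma adjusted p = 7.6e-04 and 2.2e-04). The falls of POLH and PRIMPOL in CCNB1-negative cells were -0.44 and -0.37 with nuclear scaling and no longer past the threshold (limma adjusted p = 0.070 and 0.14), and the same held with the pseudocount (0.052 and 0.10) and with limma-voom (0.064 and 0.13). In CCNB1-positive cells, conversely, limma-voom put POLH (0.44, adjusted p = 0.046) and PRIMPOL (0.49, adjusted p = 0.046) past the threshold, and nuclear scaling PRIMPOL (0.52, limma adjusted p = 0.047).

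Whether the responses of the fractions differed was tested as the difference of the 2 responses, CCNB1-positive minus CCNB1-negative. POLQ, POLN and RAD18 passed, 3 of the 10 members, where 5.33% of all genes passed, 4.99% with a positive and 0.345% with a negative difference. The difference was 2.75 ± 0.30 (SE) for POLQ (limma adjusted p = 3.6e-05), 1.17 ± 0.22 for POLN (limma adjusted p = 0.0043) and 1.12 ± 0.25 for RAD18 (limma adjusted p = 0.015). That of RAD18 was not past the threshold without untreated CCNB1-negative replicate 1, untreated CCNB1-positive replicate 2 or selumetinib CCNB1-positive replicate 2 (limma adjusted p = 0.058, 0.052 and 0.091, in a range of 1.1e-04 to 0.091 over 16 alternatives). POLH at 0.96 (95% interval 0.34 to 1.58), PRIMPOL at 0.92 (0.27 to 1.57) and MAD2L2 at 0.77 (0.23 to 1.31) did not pass after adjustment over all genes (limma adjusted p = 0.076, 0.10 and 0.10). For the 4 genes that rose in both fractions the differences were 0.35 for POLI (-0.31 to 1.02), -0.05 for POLK (-0.61 to 0.50), -0.11 for REV1 (-0.54 to 0.32) and -0.41 for REV3L (-0.91 to 0.09), none of them past the threshold in this fit.

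The fractions were also compared within each treatment. In untreated cells none of the 10 genes passed the limma test, where 2.87% of all genes did, 1.36% higher and 1.51% lower in the CCNB1-positive fraction, and the differences ran from -0.45 for POLI to 0.29 for POLQ. At an unadjusted p under 0.05 there was 1 member, POLK, at -0.41 (95% interval -0.80 to -0.01), where 13.5% of all genes had such a p. Limma-voom also called 0 members, and 2.86% of all genes. Under selumetinib 6 members were higher in CCNB1-positive than in CCNB1-negative cells and 1 was lower, against 21.6% of all genes called, 13.8% higher and 7.87% lower. POLQ was 8.27-fold higher (log2 difference 3.05 ± 0.21 SE, limma adjusted p = 1.1e-07). POLH at 1.10, RAD18 at 1.00, POLN at 0.99, MAD2L2 at 0.90 and PRIMPOL at 0.70 were higher too, with limma adjusted p of 4.9e-04 to 0.032. REV3L was the member that was lower, at -0.70 ± 0.17 (limma adjusted p = 0.0095). POLI, POLK and REV1, at -0.10, -0.46 and -0.09, did not pass.

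POLQ, POLH, RAD18, POLN and MAD2L2 passed in 17 of 17 alternatives. The REV3L difference was not past the threshold without selumetinib CCNB1-negative replicate 2 or selumetinib CCNB1-positive replicate 1 (limma adjusted p = 0.097 and 0.12, in a range of 2.0e-05 to 0.12 over 17 alternatives). The PRIMPOL difference passed in 11 of 16 alternatives, with limma adjusted p between 0.0044 and 0.23, and was lost when any of the 4 selumetinib libraries was left out. CCNB1 itself, the transcript of the sort marker, differed between the fractions by 2.09 in untreated and by 5.08 in selumetinib cells. Its selumetinib responses were -4.27 in the CCNB1-negative and -1.27 in the CCNB1-positive fraction. How well the sort separated the cells in each treatment was not tested.

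The other genes of these pathways are given by the lists, all of which were chosen with results of these data known. Their counts are to be read against the 35.8% of all genes that fell and 38.2% that rose in the negative fraction, 27.3% and 38.0% in the positive fraction, and 5.33% that passed for the difference of responses. Among regulators of PCNA ubiquitination and translesion synthesis, 15 of 16 were tested and 11 fell while 3 rose in CCNB1-negative cells, with a median of -1.26 against 0.05 for all genes, and 9 fell and 1 rose in CCNB1-positive cells, with a median of -0.66. PCNA, the clamp itself, had responses of -4.11 and -1.74 in the negative and positive fraction. In the negative fraction PCLAF, a clamp-binding factor, fell by 2.92 and USP1, which removes ubiquitin from PCNA, fell by 2.46. In CCNB1-positive cells UBE2N, an enzyme that builds ubiquitin chains, fell by 1.46 and NBN, a subunit of the MRE11 complex, fell by 1.13. ATAD5, which unloads PCNA, had a difference of responses of 2.26 (limma adjusted p = 6.1e-05). The UBE2A and UBE2B partners of RAD18 did not move together, with CCNB1-negative responses of -0.9993 and 0.36 (limma adjusted p = 7.1e-04 and 0.050), the latter just inside the threshold. HLTF, a ligase that extends ubiquitin chains on PCNA, was not tested, with 0 to 9 reads in a library.

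Among the 10 partners of MAD2L2 and polymerase zeta, 6 fell and 3 rose in CCNB1-negative cells, and 4 fell and 3 rose in CCNB1-positive cells, with medians of -0.99 and -0.22. The 3 of 10 that rose in each fraction are no more than the 38.2% and 38.0% of all genes. TRIP13, an ATPase that acts on MAD2L2, had responses of -3.37 and -1.67, and POLD2, a subunit shared by polymerases delta and zeta, had responses of -2.28 and -1.47, all of them falls. POLD3, the other shared subunit, had a difference of responses of 1.47 (limma adjusted p = 3.4e-04), with a CCNB1-positive response of 0.14 that was not past the threshold. SHLD1, a shieldin subunit, rose by 2.39 in the negative and 1.60 in the positive fraction (limma adjusted p = 4.8e-07 and 3.8e-05). It had 96 to 143 reads in the untreated libraries and log2 levels of 9.13 and 9.52 in selumetinib CCNB1-negative libraries. The subunits of polymerase zeta therefore split, with the catalytic REV3L higher and MAD2L2 and POLD2 lower in both fractions. POLD3 was lower in the CCNB1-negative fraction alone by the test used (-1.33, limma adjusted p = 1.7e-06).

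Among 12 partners of theta-mediated end joining, 10 fell and 1 rose in CCNB1-negative cells (median -1.33), and 7 fell and 1 rose in CCNB1-positive cells (median -0.74). FEN1, the flap endonuclease, had responses of -3.88 and -1.24, and PARP1, which acts at the start of end joining, had responses of -2.51 and -1.64. EXO1, a resection nuclease, fell by 3.69 in CCNB1-negative cells, and LIG3, a ligase, fell by 1.13 in CCNB1-positive cells. In CCNB1-positive cells POLQ was thus not past the threshold while 7 of the 12 partners fell. EXO1 and FEN1 also had differences of responses of 2.66 and 2.64 (limma adjusted p = 2.3e-05 and 4.2e-06), and 4 of the 12 passed that test, against 5.33% of all genes.

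All 5 PRIMPOL partners and single-strand binding proteins fell in both fractions, with medians of -2.05 and -1.07. The subunits of replication protein A, RPA1, RPA2 and RPA3, had responses of -2.14, -2.05 and -2.56 in CCNB1-negative cells. SSBP1, the mitochondrial single-strand binding protein, fell by 1.22 and POLDIP2, which stimulates PRIMPOL, fell by 1.07 in CCNB1-positive cells. The 4 high-fidelity catalytic subunits also fell in CCNB1-negative cells, with a median of -1.49, and 3 fell in CCNB1-positive cells, with a median of -0.63. POLD1, of polymerase delta, had responses of -1.94 and -0.87, and POLA1, which extends the primers that start synthesis, had responses of -1.31 and -0.62. POLE, of the leading-strand polymerase epsilon, fell by 1.66 in CCNB1-negative cells, its CCNB1-positive response of -0.16 was not past the threshold (limma adjusted p = 0.41), and the difference of responses was 1.50 (limma adjusted p = 0.0013). POLG, the mitochondrial replicative polymerase, fell by 0.63 in CCNB1-positive cells.

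The X-family polymerases, which fill short gaps in base excision repair and end joining, went the other way. POLM, POLL and POLB rose in CCNB1-negative cells by 0.77, 0.62 and 0.47 (limma adjusted p = 0.0012, 0.0018 and 0.032), and POLM and POLL rose in CCNB1-positive cells by 0.55 and 0.42 (limma adjusted p = 0.013 and 0.022), where POLB was at 0.01. DNTT, the lymphoid member, had 0 to 2 reads in a library and was not tested.

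**Figure D4:**
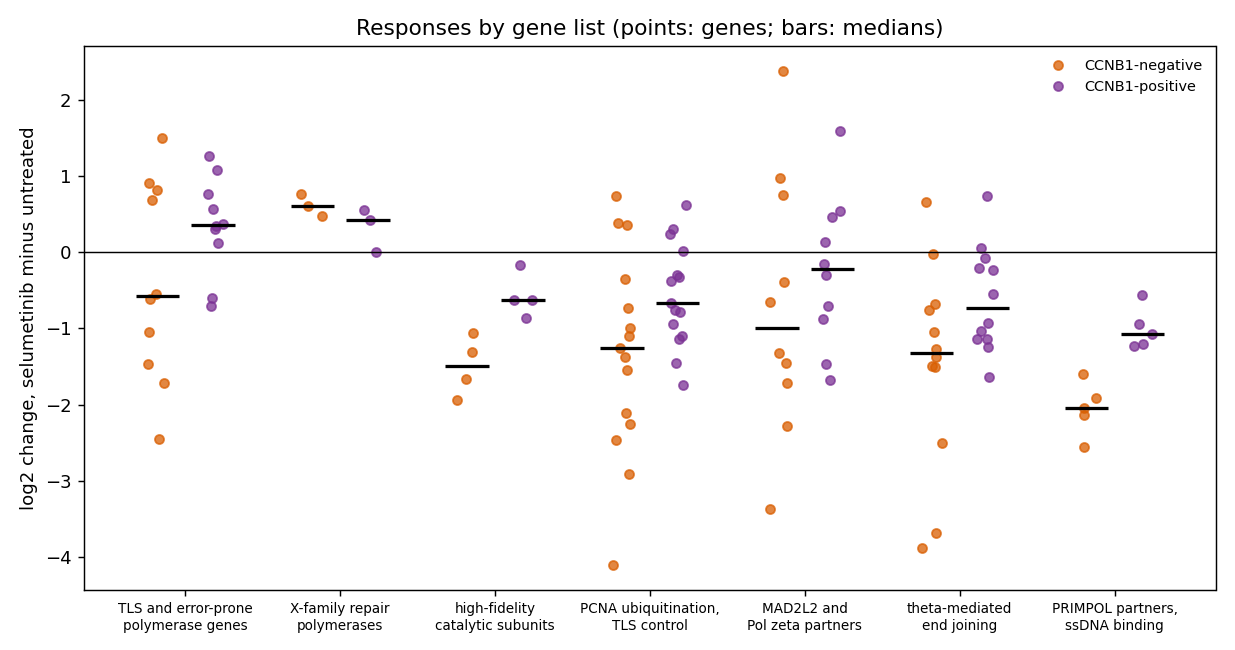
Selumetinib minus untreated log2 difference of every tested gene in the 10 translesion and error-prone polymerase genes and 6 related lists, in the CCNB1-negative and the CCNB1-positive fraction, with bars for the medians. The medians of the translesion genes are -0.58 and 0.36, and those of the 4 high-fidelity catalytic subunits -1.49 and -0.63. The translesion genes lie on both sides of 0, from -2.45 to 1.50 and from -0.70 to 1.27. Both of their medians fall between the values of POLH and PRIMPOL, so they describe no shift of the genes as a group.

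Genes whose log2 levels followed a member most closely over the 8 libraries were named by Pearson correlation, as a description of 4 group means with shared libraries. For POLQ they were BRCA2, CHTF18 and FANCD2, all at 0.99, and for RAD18 MCM8 at 1.00 and XRCC3 and XRCC2 at 0.99. For POLH they were DIAPH3, FANCM and USP13, at 0.97 to 0.98, and for PRIMPOL ZNF519, ZNF107 and FSBP, at 0.93 to 0.94. For POLN they were TYMSOS, HAUS3 and COMMD4, at 0.99, HAUS3 being the gene that shares exons with it. MAD2L2 was followed most closely by PI3, MPDU1 and CHAC2, at 0.99. The closest to the genes that rose were TMEM135, ZNF124 and ASB3 for REV3L, CLCN6, C1QTNF3 and YPEL1 for REV1, PDPR, LRRC75B and C1QTNF12 for POLI, and KIF27, CSGALNACT2 and APTR for POLK, at 0.99 to 1.00. Among the members themselves, REV1, REV3L, POLI and POLK correlated with each other at 0.89 to 0.98, POLQ with POLN at 0.94 and with POLH at 0.93, and MAD2L2 with RAD18 at 0.95. RAD18 and MAD2L2 also correlated with POLN at 0.88 and 0.85 and with POLQ at 0.83 and 0.78. With POLH and PRIMPOL they correlated at 0.51 to 0.65. POLH correlated with POLN at 0.82, so the response patterns were not separate in correlation.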

How the data were processed

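The authors prepared poly(A)-selected, directional mRNA-seq libraries from sorted HT29 cells. The submitters' processing notes and methods name Trim Galore 0.5.0 and HISAT2 2.1.0 with GRCh38, and SeqMonk for quantification. The annotation release and the strand setting for this table are not given in the sources used here. The deposited values are log2 read counts per gene, with each library scaled to the largest. The paper's methods name the total read count for this, and the constants do not follow the reads on genes. Selumetinib CCNB1-negative replicate 2, with 12696860 reads on genes against 23916160 in the largest library, had a log2 constant of 0.762. Constants were smaller than reads on genes would give in the selumetinib libraries, and close to it in the untreated ones. RPKM, summed marker levels, the pseudocount and limma-voom used the reads on genes. Genes without a read were set by the authors to log2 of 0.9 before scaling. Undoing the scaling gave whole reads for 100% of values in every library, within 0.01 reads.

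The 10 members, the gene lists and the tests were chosen with earlier results of these data known. The 14219 of 38148 genes with a mean deposited log2 value of at least 4.58, which is 1 RPM in the largest library, were fitted with limma 3.58.1 (R 4.3.3) on the deposited log2 values, with a mean-variance trend, 4 groups and all 8 libraries. The 5 contrasts were the selumetinib response in each fraction, the fraction difference in each treatment and the difference of responses. P-values were two-sided and adjusted by Benjamini-Hochberg over all genes tested, with a threshold of 0.05. The fit was tested on simulated data with known changes. Alternatives were a filter of 10 RPM or none, quantile and nuclear scaling, a pseudocount of 0.1 RPM on recovered reads, limma-voom on those reads, replicate blocks, the compared groups alone, a threshold of 0.01 and each library left out. All 10 members were named, and from each list up to 3 genes with the largest change past the threshold in each fraction and up to 2 for the difference of responses. UBE2A, UBE2B, HLTF, DNTT and the POLB response in CCNB1-positive cells were named outside that rule after their values were seen, as were the values in a second contrast of genes the rule named in another. Merged exon lengths and overlaps came from GENCODE release 44, which held 99.3% of the gene IDs. Promoters came from the RefSeq table. Libraries of a group differed by more than sampling noise, with a chi-square per gene of 15.6 to 30.2. Tables were handled in pandas 2.3.3 and numpy 2.4.6, and plots drawn with matplotlib 3.10.9, under Python 3.11.15.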

Additional observations from a re-analysis of the deposited data

Results flagged for a closer look

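The selumetinib response differed between the sorted fractions for 3 of the 10 genes, by the limma test of the difference itself, which 5.33% of all genes passed. The CCNB1-positive response minus the CCNB1-negative response was 2.75 on the log2 scale for POLQ, 1.17 for POLN and 1.12 for RAD18. For POLQ and POLN the CCNB1-negative response was a fall and the CCNB1-positive response was not past the threshold, and for RAD18 both were falls, at -1.72 and -0.60. The RAD18 call was lost in 3 of the fits that leave out a library, with limma adjusted p of 0.052 to 0.091. HAUS3, which shares exons with POLN, had a difference of 1.21.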

How the results depend on the processing

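Of 860 alternative results for the 10 genes over the 5 comparisons, 808 kept their direction and their side of the threshold applied. Another 30 were no longer past it, 11 passed it newly and 11 changed sign. The 860 include the 50 reported results read at the threshold of 0.01, where no value was recomputed. No result that was past the threshold changed sign, and 18 of the 26 such results kept their call under every alternative run. The sign changes were all in differences that were not past the threshold. With quantile normalization they were the CCNB1-positive responses of POLH (-0.046), POLN (-0.030) and PRIMPOL (-0.31). With single libraries left out, the untreated fraction difference ranged from -0.027 to 0.62 for POLQ, from -0.088 to 0.13 for REV1 and from -0.23 to 0.0029 for RAD18, and the difference of responses of POLK from -0.17 to 0.061. Leaving out single libraries gave 8 to 10 members called in CCNB1-negative cells (65.1 to 73.3% of all genes), 5 or 6 in CCNB1-positive cells (51.3 to 68.3%), 0 between untreated fractions (1.58 to 3.20%), 5 to 7 between selumetinib fractions (8.13 to 30.1%) and 2 to 4 for the difference of responses (3.44 to 12.7%). Same-numbered libraries of the 2 fractions deviated together (r = 0.35 untreated and 0.43 selumetinib), whereas the other pairs had r of -0.09 to 0.08, and with 2 pairs for each comparison and no label that ties a number to a shared culture, whether the numbers pair the fractions is not settled. A replicate block over all groups left the counts of members called at 10, 6, 0, 7 and 3. A block that paired the fractions within a treatment called 7 members for the difference of responses in place of 3, and 27.1% of all genes in place of 5.33%. It added POLH, MAD2L2, PRIMPOL and REV3L (limma adjusted p = 0.0043, 0.0064, 0.013 and 0.034), and gives no value for the responses. The compared groups alone give no value for the difference of responses. The cause of these changes was not tested. The lowest count behind a member was 78 reads in a library.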
